A study of Homo sapiens with 21 samples.

Results

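The comparison described here sets MM.1S cells kept for 72 h in pomalidomide against MM.1S cells that received no drug, in 3 mRNA libraries of each kind. MM.1S is a human multiple myeloma line that grew out of peripheral blood, and the labels give its genotype as wild type. The 6 libraries belong to a series of 21, which also holds pomalidomide at 24 and 48 h, a control knockdown and hairpins against ARID2 and Aiolos, with 3 libraries in each of its 7 groups. The treated cells received 1 µM pomalidomide, and all of the cells grew in RPMI medium with fetal bovine serum and antibiotics. No untreated cells matched to each drug time are labelled, so time in the drug and time in culture cannot be told apart. Each group is 1 cell line, and its 3 libraries are called biological replicates with nothing said of days or cultures, so that every p-value measures only how these libraries scatter. Of the 17691 genes listed, the 12559 with at least 1 TPM in at least 3 of the 21 libraries were tested. WFDC2 and DCLK2 stood just inside this rule, with a third-highest library value of 1 TPM, and GOLGA8O (0.999 TPM) and DNAH14 (0.996 TPM) just outside it. TPM is the share of a library's transcripts that a gene holds, corrected for gene length.

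Pomalidomide is an immunomodulatory drug that binds cereblon, the substrate receptor of a ubiquitin ligase built on the scaffold CUL4. With the drug bound, the ligase takes up zinc finger proteins, among them the Ikaros (IKZF1) and Aiolos (IKZF3) factors, and marks them for the proteasome. Both are lymphoid transcription factors on which myeloma cells depend, and IRF4 and MYC lie downstream of them. Loss of the proteins need not lower their own mRNA. A plasma cell is a B cell turned over to antibody secretion, with a large endoplasmic reticulum and a strong unfolded protein response, and a myeloma line adds to this continuous division. Genes of DNA replication are driven by E2F factors, which pocket proteins of the RB family restrain, whereas genes of mitosis are switched by the MuvB complex, which represses with p130 in resting cells and activates with B-MYB and FOXM1 in cycling cells.

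The libraries of a group were alike: across tested genes, Pearson r of log2(TPM + 1) was 0.9933 to 0.994 among the 72 h libraries, 0.9943 to 0.9947 among the untreated ones and 0.9084 to 0.9121 between them, across genes that are not independent. Mitochondrial mRNAs held 13.28% to 14.18% of all TPM at 72 h and 15.37% to 15.62% in untreated cells. TPM keeps no record of sequencing depth, which is therefore unknown. All 10 plasma cell markers were detected in both groups, and their summed level was 9049 to 9342 TPM at 72 h and 11074 to 11257 TPM in untreated cells. JCHAIN was at 3769.7 TPM at 72 h against 5731 TPM in untreated cells, MZB1 at 1977 TPM at 72 h against 1133 TPM in untreated cells and CD38, the lowest, at 11.6 TPM at 72 h against 6.92 TPM in untreated cells. By the test used below, 3 of the 10 were higher at 72 h and 6 lower. Of the 8 listed markers of mature B cells 4 passed the filter, and all 8 summed to 27.8 to 28.7 TPM at 72 h and 41.4 to 42.5 TPM in untreated cells. Nearly all of this was CR2, and MS4A1, FCER2 and CD22 stayed at or under 0.0524 TPM in each of the 6 libraries.

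Most of the measured transcriptome moved. Of 12559 genes, 10017 passed the test (79.8%), 6047 of them higher and 3970 lower at 72 h (limma on log2(TPM + 1), adjusted p under 0.05), and 10142 had an unadjusted p under 0.05. This gives a background of 48.1% of genes higher and 31.6% lower, against which every count below has to be read. Changes of 2-fold or more were fewer, with 1363 rises (10.9%) and 980 falls (7.80%). The median log2 fold change of all tested genes was 0.15, and with median-of-ratios scaling it was 0.01, with 4919 genes higher and 4925 lower. For that reason list medians written as relative median are given relative to the median of all genes. Other medians, such as those against 48 h, by motif and in the figures, are given as fitted, as are fold changes of single genes. Among the genes named here, calls with a log2 fold change of up to 0.34 were lost with that scaling.

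**Figure D1:**
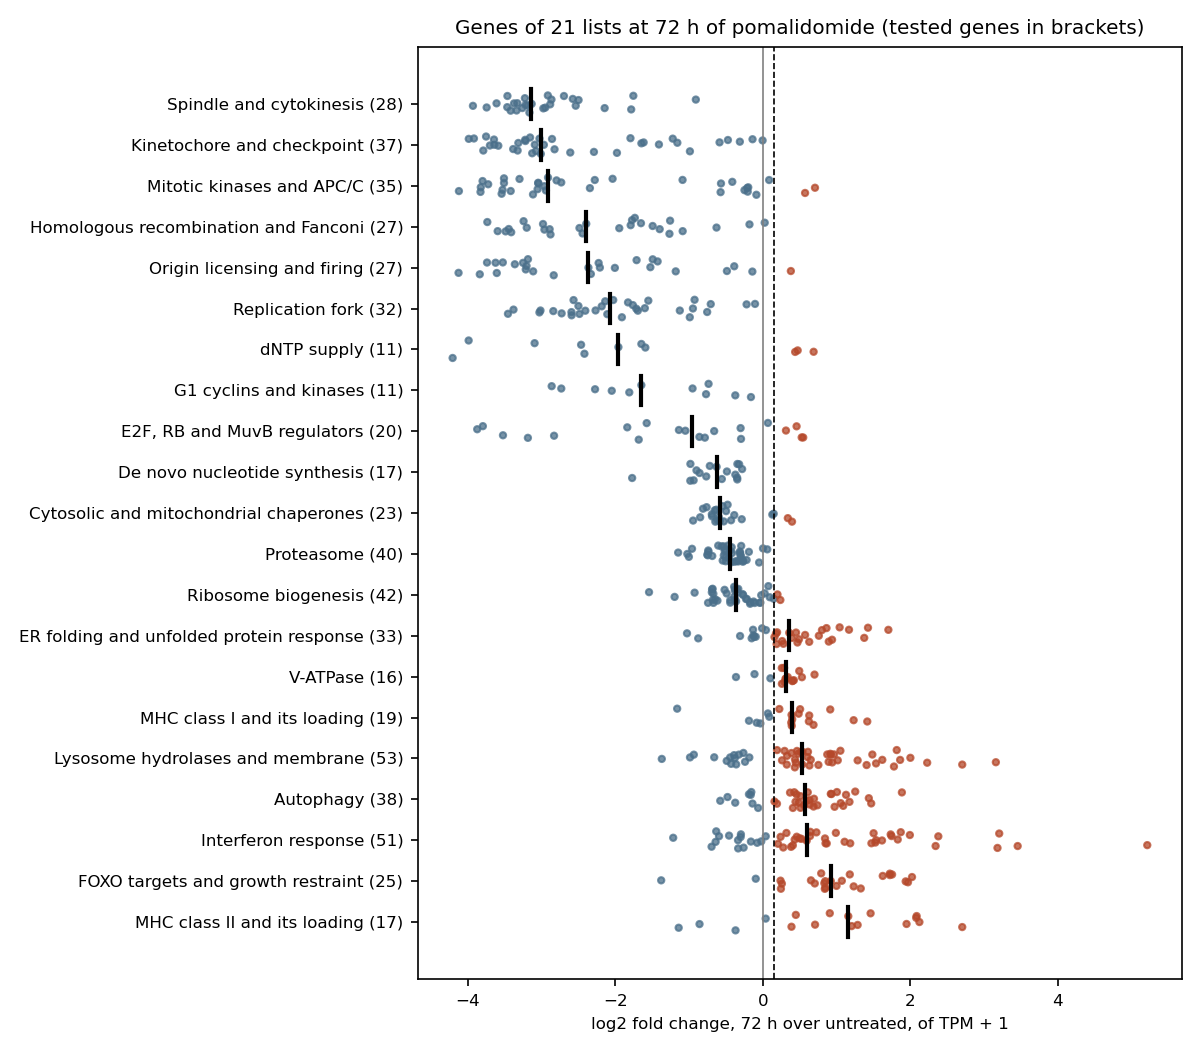
Log2 fold change of TPM + 1, 72 h of pomalidomide over untreated cells, for the members of 21 gene lists. Each point is a gene (red above and blue below the median of all tested genes, the dashed line at 0.15) and the black bar is the list median. Lists of DNA replication and mitosis lie far below the dashed line, and those of MHC class II, FOXO targets, interferon response, autophagy and lysosome lie above it.

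Messages of the cereblon ligase were lower on balance by small amounts, and those of its reported substrates were mostly higher. Of the 19 genes of the cereblon ligase and of COP9, the complex that removes NEDD8 from cullins, 5 were higher and 11 lower (relative median -0.33), beside 48.1% and 31.6% of all genes. With median-of-ratios scaling 1 was higher and 13 lower. CRBN, cereblon itself, had 20.9, 20.0004 and 20.1 TPM at 72 h, against 16.3, 15.7 and 18.2 TPM in untreated cells, a log2 fold change of 0.27 ± 0.07 (SE), limma adjusted p = 0.0028. The libraries lay close together but did not overlap. IKZF1 had 77.02, 74.4 and 69.1 TPM at 72 h, against 45.7, 44.5 and 47.7 TPM in untreated cells, and its log2 fold change was 0.66 ± 0.04 (SE), limma adjusted p = 2.45e-11. For IKZF3 the values were 117, 109 and 108 TPM at 72 h, against 98.02, 96.7 and 94.5 TPM in untreated cells, with a log2 fold change of 0.21 ± 0.05 (SE), limma adjusted p = 5.50e-04. All 72 h libraries were above all untreated ones for IKZF1 and IKZF3, and the calls for CRBN and IKZF3 were lost with median-of-ratios scaling (0.11 and 0.05). Of the 17 measured proteins reported as drug-dependent substrates of cereblon, 12 had higher and 3 lower messages (relative median 0.24). ZNF692 and ZNF276, both zinc finger proteins, rose most, with log2 fold changes of 1.32 and 1.02. The falls were those of GSPT1, a translation termination factor (-0.40), RAB28 (-0.49) and PATZ1 (-0.49). ARID2, a subunit of the PBAF chromatin remodeller, had 29.5 TPM at 72 h against 29.8 TPM in untreated cells and did not pass the test (-0.01), though it was called lower with median-of-ratios scaling (-0.17).

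IRF4, the transcription factor that keeps plasma cells alive, stood at 233, 226 and 229 TPM at 72 h, against 471, 459 and 476 TPM in untreated cells (chr6:391739-411447 on the plus strand, hg38), and all 72 h libraries were below all untreated ones. The log2 fold change of IRF4 was -1.03 ± 0.04 (SE), limma adjusted p = 5.39e-16. The level at 72 h was nonetheless above that at 48 h, by 0.20 on the log2 scale (limma adjusted p = 1.20e-04). MYC, the growth regulator, had 299, 309 and 307 TPM at 72 h, against 468, 475 and 495 TPM in untreated cells, a log2 fold change of -0.65 ± 0.03 (SE), limma adjusted p = 1.09e-13. Again the groups did not overlap. Of the 12 tested genes of the MYC network, MYC itself included, 8 were higher and 2, MYC and MXD3, lower. With median-of-ratios scaling 7 were higher and 3 lower, beside 48.1% and 31.6% of all genes as deposited. MXD1 and MXD4, which pair with MAX and oppose MYC, rose to 34.5 and 114 TPM at 72 h, against 12.9 and 32.8 TPM in untreated cells. MYCL and MYCN, relatives of MYC, rose by 1.64 and 1.55 on the log2 scale to 21.8 and 16.5 TPM. MXD3, a relative of MXD1 tied to cycling cells, fell by 1.11 on the log2 scale.

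Among the factors that set B cell and plasma cell identity, MAF, which is highly expressed in this line through a translocation, averaged 1303 ± 23.7 TPM at 72 h and 453 ± 6.03 TPM in untreated cells (SD, n = 3 each) and rose by 1.52 on the log2 scale. BACH2, a B cell repressor of plasma cell genes, had 27.4, 27.8 and 28.1 TPM at 72 h, against 6.18, 7.17 and 7.06 TPM in untreated cells, without overlap, and BCL11A and TCF4, B lineage factors, rose by 0.97 and 0.92 on the log2 scale. POU2AF1, a B cell coactivator, fell, with a log2 fold change of -0.44, as did TCF3 and ETS1 (-0.49 and -0.54). PRDM1, the plasma cell master regulator, fell by 0.14, and XBP1, driver of the secretory programme, had 1079 TPM at 72 h against 1086 TPM in untreated cells and did not pass the test (-0.01), though it was called higher with quantile normalization (0.16), and lower both without mitochondrial mRNAs and IGLL5 (-0.07) and on median-of-ratios scaling (-0.17). In that list 10 of 19 genes were higher and 5 lower (9 and 6 with median-of-ratios scaling), near the 48.1% and 31.6% of all genes.

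Messages of the CIP/KIP inhibitors, brakes on the cell cycle, rose, and those of its G1 accelerators fell. CDKN1A (p21) had 54.5, 55.5 and 55.9 TPM at 72 h, against 25.5, 21.7 and 22.1 TPM in untreated cells, a log2 fold change of 1.23 ± 0.06 (SE), limma adjusted p = 2.63e-13. CDKN1B (p27) had 385, 373 and 384 TPM at 72 h, against 191, 191 and 189.6 TPM in untreated cells, a log2 fold change of 1.00 ± 0.03 (SE), limma adjusted p = 8.80e-18. CDKN1C (p57) had 18.7 TPM at 72 h against 5.80 TPM in untreated cells and rose by 1.53. No library of 72 h fell within the untreated range for these 3 inhibitors, and for p27 the 72 h libraries were above all the other 18. Of the INK4 family CDKN2D alone passed the filter, and it fell by 0.46 on the log2 scale. All 11 measured G1 cyclins, kinases and their partners fell (relative median -1.80). CDC25A, the phosphatase that frees CDK2, fell to 9.65 TPM at 72 h against 76.5 TPM in untreated cells. CKS1B, the SCF cofactor through which p27 is degraded, fell to 40.9 TPM at 72 h against 278 TPM in untreated cells. Cyclin E1 (CCNE1) and CDK4 had log2 fold changes of -2.28 and -0.95. CCND2, of the D cyclins the one with the highest level in these cells (177 TPM at 72 h against 198 TPM in untreated cells), had the smallest fall of the list, -0.16, and was higher at 72 h than at 48 h by 0.67.

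E2F factors and their pocket proteins changed unequally. E2F1 had 15.3, 14.4 and 14.9 TPM at 72 h, against 225, 219 and 215 TPM in untreated cells (chr20:33675683-33686404 on the minus strand, hg38), so that the groups lay far apart. Its log2 fold change was -3.80 ± 0.05 (SE), limma adjusted p = 2.74e-22. E2F3, another activator, fell by 0.30 on the log2 scale. E2F2, TFDP1, the dimer partner, and E2F8, an atypical repressor that is itself induced in S phase, had log2 fold changes of -2.83, -1.68 and -3.88. RBL2 (p130), the pocket protein of resting cells, rose to 96.9 TPM at 72 h against 66.9 TPM in untreated cells, while RBL1 (p107) and RB1 fell (-1.14 and -0.30). E2F4, the repressive E2F of resting cells, had 111 TPM at 72 h against 106 TPM in untreated cells and did not pass the test. The activators that join MuvB in cycling cells fell, MYBL2 (B-MYB) to 35.2 TPM at 72 h against 416 TPM in untreated cells and FOXM1 to 11.3 TPM at 72 h against 110.3 TPM in untreated cells. Of the 4 measured genes of the MuvB core 3 fell, LIN9 and LIN54 among them (-1.58 and -0.79), and 1 rose by 0.55 on the log2 scale. MYB, a proto-oncogene of immature blood cells and among the 25 largest falls, had 0.791, 0.977 and 0.734 TPM at 72 h, against 27.1, 27.5 and 26.2 TPM in untreated cells.

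E2F factors bind a short sequence close to the start of the replication genes they drive, and 4 promoters of genes that fell are shown so that it can be seen. They come from RefSeq on GRCh38.p14, run 5′ to 3′ on the gene's strand over the 70 bases before the RefSeq start, and capitals mark an E2F motif on either strand.
E2F1 (chr20:33686386-33686455, minus strand): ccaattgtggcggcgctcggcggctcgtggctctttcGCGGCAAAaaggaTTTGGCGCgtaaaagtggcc
CDT1 (chr16:88803719-88803788, plus strand): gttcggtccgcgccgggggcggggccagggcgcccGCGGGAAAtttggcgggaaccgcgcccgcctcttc
GINS2 (chr16:85688955-85689024, minus strand): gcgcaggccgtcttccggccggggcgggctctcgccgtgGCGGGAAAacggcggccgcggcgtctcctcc
PCNA (chr20:5126623-5126692, minus strand): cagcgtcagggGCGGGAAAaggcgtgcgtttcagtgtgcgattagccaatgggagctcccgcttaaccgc
The letters searched were TTTGGCGC, TTTGCCGC, TTTCGCGC and TTTCCCGC on both strands, over 250 bases before to 50 after the start. Of origin licensing and firing genes with a promoter in the table, 11 of 22 held one, and of replication fork genes 9 of 28 (32.1%), against 5.48% of the 10003 tested genes with a promoter and 3.33% of all 27305 promoters. Among the 104 promoters of called genes with a log2 fold change of -3 or below, 26 held an E2F motif, and among the 36 of genes at 3 or above 2.78% did. Origin genes with the letters had a median log2 fold change of -2.21 and those without them of -2.33, and for fork genes the medians were -2.49 and -2.11. These differences were not tested. A match is a description of letters, and binding was not measured.

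DNA replication genes fell almost without exception. Origin licensing and firing, the step that loads and starts the MCM helicase, had 26 of 27 members lower (relative median -2.52). The exception was ORC4, a subunit of the origin recognition complex, which rose by 0.38. MCM10, which activates the helicase, had 1.76, 1.91 and 1.13 TPM at 72 h, against 44.4, 41.4 and 46.7 TPM in untreated cells. CDC45, a part of the moving helicase, had 5.89, 4.88 and 4.16 TPM at 72 h, against 83.1, 86.1 and 82.9 TPM in untreated cells. In both genes the groups lay far apart. CDC6 and CDT1, which load the helicase, had log2 fold changes of -3.63 and -3.53, and the MCM2 to MCM7 subunits lay between -3.36 (MCM4) and -1.71 (MCM3). Among the subunits of the origin recognition complex, ORC1 and ORC6 had the steepest falls (-3.61 and -3.19), whereas ORC3 and ORC5 stood at -0.49 and -0.39.

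At the fork, 31 of 32 genes fell (relative median -2.22). PCNA, the sliding clamp, had 121, 125 and 114 TPM at 72 h, against 716, 732 and 737 TPM in untreated cells, a log2 fold change of -2.59 ± 0.04 (SE), limma adjusted p = 2.02e-21. FEN1, which trims Okazaki fragments, fell to 57.1 TPM at 72 h against 415 TPM in untreated cells. CLSPN, which carries the fork checkpoint, fell by 3.46 on the log2 scale. ASF1B, the histone chaperone of dividing cells, had a log2 fold change of -3.38, and its relative ASF1A of -0.71. POLE4, a subunit of polymerase epsilon, was the member that did not pass (27.4 TPM at 72 h against 29.5 TPM in untreated cells), though it was called lower with median-of-ratios scaling (-0.26), with quantile normalization (-0.19) and without mitochondrial mRNAs and IGLL5 (-0.16).

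Genes of deoxynucleotide supply showed a split by enzyme. RRM2, the small subunit of ribonucleotide reductase made in S phase (chr2:10120698-10131419 on the plus strand, hg38), had 25.6, 21.7 and 20.3 TPM at 72 h, against 433, 433 and 431 TPM in untreated cells, the largest fall among called genes without overlap and with at least 5 TPM in the higher group. This is a log2 fold change of -4.21 ± 0.06 (SE), limma adjusted p = 5.76e-22. TYMS, thymidylate synthase and the target of fluoropyrimidines, had 24.01, 25.1 and 23.95 TPM at 72 h, against 403, 408 and 395 TPM in untreated cells, and thymidine kinase TK1 fell by 3.10 on the log2 scale. RRM2B, the small subunit used outside S phase, rose by 0.47 to 12.98 TPM. SAMHD1, which degrades deoxynucleotides, rose to 172 TPM at 72 h against 106 TPM in untreated cells, its 72 h libraries above all the other 18. The deaminase DCTD rose by 0.44 on the log2 scale. These 3 were the only rises among 11 genes, of which 8 fell.

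Genes of homologous recombination and of the Fanconi pathway, which repair broken and crosslinked DNA in cycling cells, followed replication: 26 of 27 fell (relative median -2.55). BRCA1 fell to 4.75 TPM at 72 h against 44.5 TPM in untreated cells, FANCI to 14.6 TPM at 72 h against 142 TPM in untreated cells and the helicase BLM to 2.01 TPM at 72 h against 35.4 TPM in untreated cells. RAD51AP1 and FANCG had log2 fold changes of -2.96 and -2.89. EXO1, an exonuclease of resection, was among the 25 largest falls (-3.74). FANCF, an adaptor of the Fanconi core complex, did not pass (33.6 TPM at 72 h against 33.1 TPM in untreated cells), though it was called lower with median-of-ratios scaling (-0.13 on the log2 scale).

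Mitotic genes fell as well, and most of them fell further between 48 and 72 h. All 28 genes of the spindle and of cytokinesis fell against untreated cells (relative median -3.31), 36 of 37 of the kinetochore and its checkpoint (-3.17), and 31 of 35 mitotic kinases, cyclins and APC/C genes (-3.07). PLK1, the kinase that starts and ends mitosis (chr16:23677656-23690367 on the plus strand, hg38), had 7.76, 7.50 and 8.19 TPM at 72 h, against 116, 113 and 119 TPM in untreated cells. The fall of PLK1 was -3.73 ± 0.05 (SE), limma adjusted p = 3.02e-22, on the log2 scale. DLGAP5, a spindle protein, had 3.56, 2.58 and 3.37 TPM at 72 h, against 62.5, 63.04 and 61.6 TPM in untreated cells. CDK1, the mitotic kinase, fell to 11.2 TPM at 72 h against 139 TPM in untreated cells and its cyclin CCNB1 to 21.6 TPM at 72 h against 185 TPM in untreated cells. UBE2C, the ubiquitin enzyme of the APC/C, had 13.4 TPM at 72 h against 197 TPM in untreated cells, and CDC20, its mitotic activator, fell by 3.54 on the log2 scale.

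A few members of the mitotic lists stood apart. FZR1, the APC/C activator of G1, did not pass (34.7 TPM at 72 h against 32.6 TPM in untreated cells), and of the APC/C core CDC16 and ANAPC2 rose by 0.57 and 0.71. The kinetochore protein MIS12 did not pass either (72.2 TPM at 72 h against 72.4 TPM in untreated cells), though it was called lower with median-of-ratios scaling (-0.16), whereas SKA1, CENPW and SPC25 had log2 fold changes of -3.92, -3.99 and -3.79. CKAP5, a microtubule polymerase that also works in interphase, had the smallest fall of the spindle list (-0.91). PBK and MELK, both kinases of dividing cells, and HJURP, the chaperone of the centromeric histone, were among the 25 largest falls, with log2 fold changes of -4.12, -3.80 and -3.75. These are bulk libraries, in which fewer cells in a phase of the cycle and less RNA in each cell cannot be told apart.

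Promoters of many mitotic genes hold the cell cycle homology region (CHR, TTTGAA), the letters that MuvB reads, often with a CCAAT box, the site of NF-Y, upstream of it. Shown are 4 of them over the 90 bases before the RefSeq start (GRCh38.p14, 5′ to 3′ on the gene's strand), with TTTGAA or TTCAAA and CCAAT or ATTGG in capitals.
PLK1 (chr16:23678799-23678888, plus strand): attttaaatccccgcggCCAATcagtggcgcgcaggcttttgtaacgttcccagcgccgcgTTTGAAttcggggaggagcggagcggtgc
KIF11 (chr10:92593040-92593129, plus strand): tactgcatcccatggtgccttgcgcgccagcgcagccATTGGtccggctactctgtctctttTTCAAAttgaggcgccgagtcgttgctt
HMMR (chr5:163460542-163460631, plus strand): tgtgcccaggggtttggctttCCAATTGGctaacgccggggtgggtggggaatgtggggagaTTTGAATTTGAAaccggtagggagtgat
CCNB2 (chr15:59105056-59105145, plus strand): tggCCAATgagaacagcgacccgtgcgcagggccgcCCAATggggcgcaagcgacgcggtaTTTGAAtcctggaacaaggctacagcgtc
Of the spindle genes with a promoter sequence, 21 of 26 (80.8%) held the CHR letters in the window of 250 bases before to 50 after the start, against 9.97% of tested genes and 15.4% of all promoters. CCAAT letters stood in 20 of the 26 (76.9%), against 37.1% of tested genes and 35.7% of all promoters. Only 1 of 22 origin genes (4.55%) held the CHR letters. Spindle genes with the CHR letters had a median log2 fold change of -3.22 and the 5 without one of -2.89, and in the kinetochore list the medians were -3.15 and -2.61. In the list of mitotic kinases and the APC/C they were -2.80 and -1.46. These differences were not tested.

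**Figure D2:**
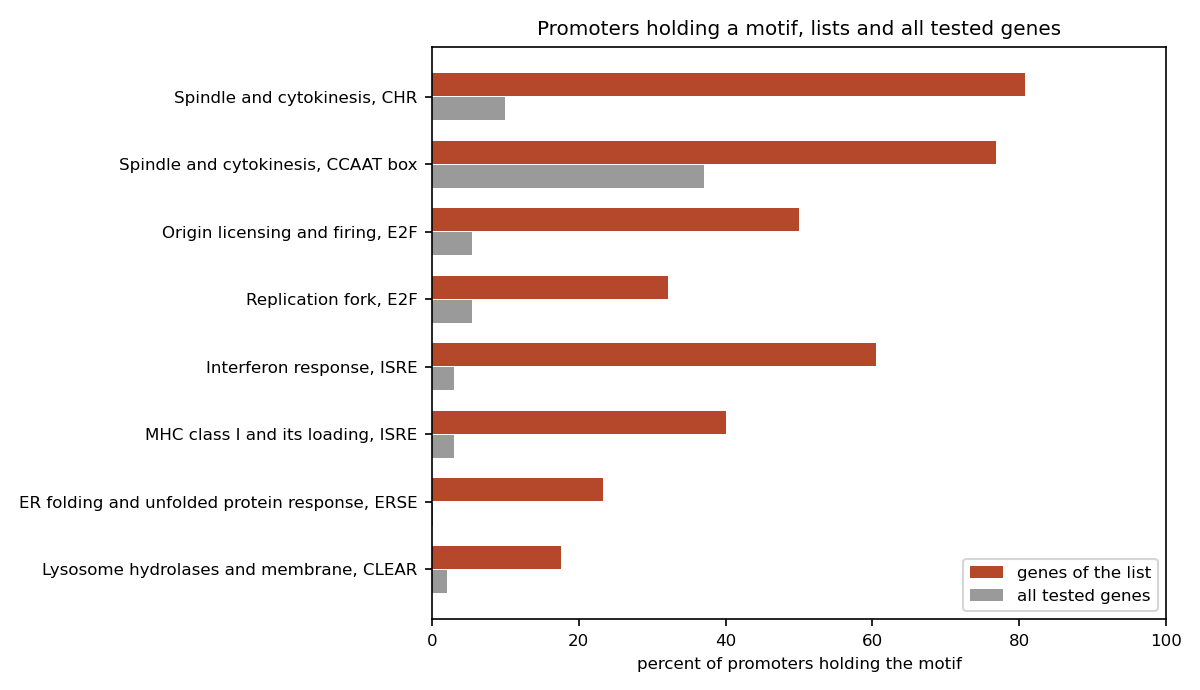
Percent of promoters, from 250 bases before to 50 after the RefSeq start, that hold a motif on either strand. Red bars are genes of the named list and grey bars are all tested genes with a promoter in the table. The CHR stands in 80.8% of spindle promoters against 9.97% of tested genes, and the ERSE in 23.3% of endoplasmic reticulum genes against 0.15%.

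The last day separates the lists. Against 48 h, 6034 of the 12559 genes (48.0%) passed at 72 h, 3967 higher (31.6%) and 2067 lower (16.5%), of which 29 rises (0.231%) and 127 falls (1.01%) reached 2-fold. With median-of-ratios scaling 2524 were higher and 2951 lower. Of the spindle genes 27 of 28 fell further after 48 h, with a median log2 change of -1.17, and 27 of them had all 72 h libraries below all of the other 18, against a background of 4.94%. Kinetochore genes had 26 of 37 lower than at 48 h (median -0.91). Origin genes had 16 of 27 lower (median -0.23) and fork genes 15 of 32 (median -0.12). PLK1 averaged 26.7 TPM at 48 h and 7.82 TPM at 72 h, a log2 change of -1.65. TYMS, of the deoxynucleotide list, also fell further, by 1.15 on the log2 scale, whereas CDC6 had a log2 change of -0.07 and did not pass.

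**Figure D3:**
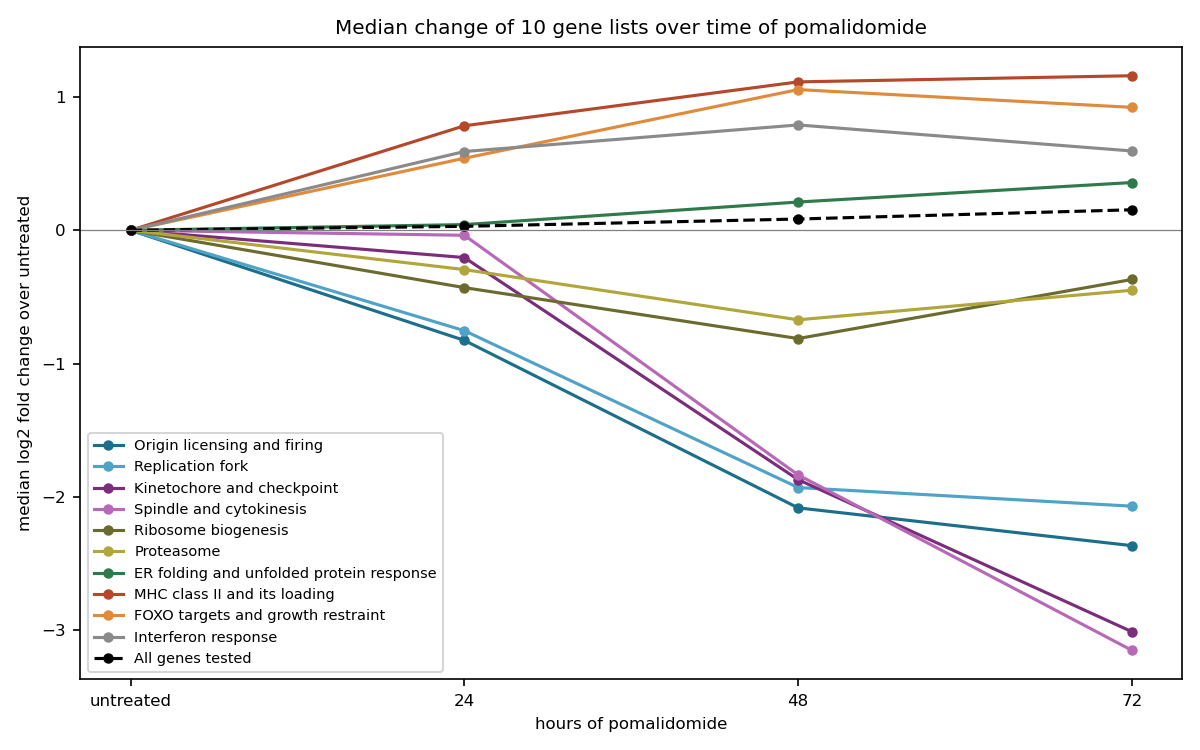
Median log2 fold change against untreated cells of 10 gene lists and of all tested genes, at 0, 24, 48 and 72 h of pomalidomide (h in drug on the x axis). The spindle list reads -0.04 at 24 h, -1.84 at 48 h and -3.15 at 72 h, and the origin list -0.83, -2.08 and -2.37. All 3 times share the same untreated libraries.

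The order of the falls over the 3 days can be read in single genes. E2F1 averaged 219.6 TPM in untreated cells, 89.3 at 24 h, 20.9 at 48 h and 14.9 at 72 h. PLK1 averaged 116, 128, 26.7 and 7.82 TPM at the same times. At 24 h E2F1 was thus well below its untreated level and PLK1 was not.

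Chromatin genes tied to replication fell, and EZH1, CBX7 and TET2 rose. UHRF1, which guides maintenance DNA methylation to new strands, had 5.97, 6.14 and 4.97 TPM at 72 h, against 99.4, 100.3 and 104 TPM in untreated cells, a log2 fold change of -3.94 ± 0.06 (SE), limma adjusted p = 3.67e-21. DNMT1, the methyltransferase it recruits, fell to 62.1 TPM at 72 h against 146 TPM in untreated cells. EZH2, the Polycomb methyltransferase of dividing cells, fell to 30.9 TPM at 72 h against 112 TPM in untreated cells, whereas EZH1, its counterpart in resting cells, rose to 81.7 TPM at 72 h against 44.5 TPM in untreated cells. CBX7, a reader of Polycomb marks, rose by 1.17 and the oxidase TET2 by 0.88. In the list as a whole 6 of 26 rose and 13 fell. Of condensin, cohesin and topoisomerase II genes 19 of 22 fell, led in size by CDCA5 (sororin, -3.56) and the condensin subunit NCAPH (-3.43). TOP2A, the topoisomerase of dividing cells, had 25.3 TPM at 72 h against 238 TPM in untreated cells.

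Among the measured histone messages more rose than fell, unlike those of the replication genes. The kit captures polyadenylated RNA, whereas most replication histone mRNA has no poly(A) tail, so that the values cover the polyadenylated part of it. HIST1H2AC had 57.3, 56.8 and 56.9 TPM at 72 h, against 6.59, 6.48 and 5.22 TPM in untreated cells. HIST1H2BK had 110.0, 123 and 89.6 TPM at 72 h, against 10.4, 14.6 and 13.5 TPM in untreated cells. HIST1H2BD rose by 3.22 on the log2 scale. Of the 28 histone genes tested, out of 40 in the list, 19 rose and 5 fell (relative median 0.43), and 11 were under the filter. Some tested ones were near 0 in untreated cells, which left little room for a fall. There the 2 H3 genes summed to 1.73 to 2.64 TPM and the 3 H4 genes to 2.12 to 3.63 TPM, so the count leans toward rises. Of the 7 variants counted in the list 3 rose and 4 fell, H2AFZ (-1.88) and H2AFX (-1.40) among the falls. The 28 genes summed to 3581 to 3780 TPM at 72 h and 3645 to 3801 TPM in untreated cells. Histone genes have close copies, and reads could be divided among them: HIST2H2AA4 was listed at 29.7, 55.99 and 43.4 TPM at 72 h, against 18.4, 0 and 0 TPM in untreated cells, where a single untreated library held all of the signal.

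Messages of the growth machinery were lower at 72 h than in untreated cells but higher than at 48 h. Of 42 ribosome biogenesis genes 31 were lower than untreated and 3 higher (relative median -0.52). At 72 h 38 were higher than at 48 h (36 with median-of-ratios scaling), beside 31.6% of all genes. FBL, the methyltransferase of ribosomal RNA, fell to 183 TPM at 72 h against 419.8 TPM in untreated cells. NPM1, nucleophosmin, averaged 1149 TPM in untreated cells, 754 at 24 h, 558 at 48 h and 687 at 72 h. NCL, nucleolin, averaged 646, 428, 285 and 402 TPM at these times. PES1, NIP7 and NOB1, factors of subunit assembly, were the 3 above untreated, with log2 fold changes of 0.15, 0.20 and 0.24, none of which passed with median-of-ratios scaling, where PES1 turned to -0.01, and the call of NIP7 was also lost with quantile normalization and that of PES1 without mitochondrial mRNAs and IGLL5.

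Other biosynthetic lists had the same shape. All 17 enzymes of de novo nucleotide synthesis were lower than untreated, with PRPS2 the most (-1.77), and 14 were higher than at 48 h (11 with median-of-ratios scaling). Aminoacyl-tRNA synthetases had 15 of 20 lower than untreated and 16 higher than at 48 h (13 with median-of-ratios scaling). FARSB and YARS, which charge phenylalanine and tyrosine tRNA, had log2 fold changes of -0.65 and -0.65, and CARS, for cysteine, rose by 0.44. The proteasome had 37 of 40 genes lower, none higher, and 30 above their level at 48 h (19 with median-of-ratios scaling). PSMG1, an assembly chaperone, fell to 64.2 TPM at 72 h against 144 TPM in untreated cells, and PSMD14, the deubiquitinase of the lid, fell to 32.99 TPM at 72 h against 68.1 TPM in untreated cells. PSMB5, the subunit that bortezomib inhibits, fell by 0.35 on the log2 scale. Of the cytosolic and mitochondrial chaperones 19 of 23 fell, all 8 subunits of the CCT folding ring among them, and the exceptions were CDC37, HSPB1, DNAJB1 and DNAJA1 (0.40, 0.34, 0.15 and 0.13). Of these 4, CDC37 alone passed with median-of-ratios scaling, and DNAJB1 and DNAJA1 turned to -0.01 and -0.03. The calls of DNAJB1 and DNAJA1 were also lost without library 3 of 72 h (0.12 and 0.09) and without mitochondrial mRNAs and IGLL5 (0.09 and 0.07).

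**Figure D4:**
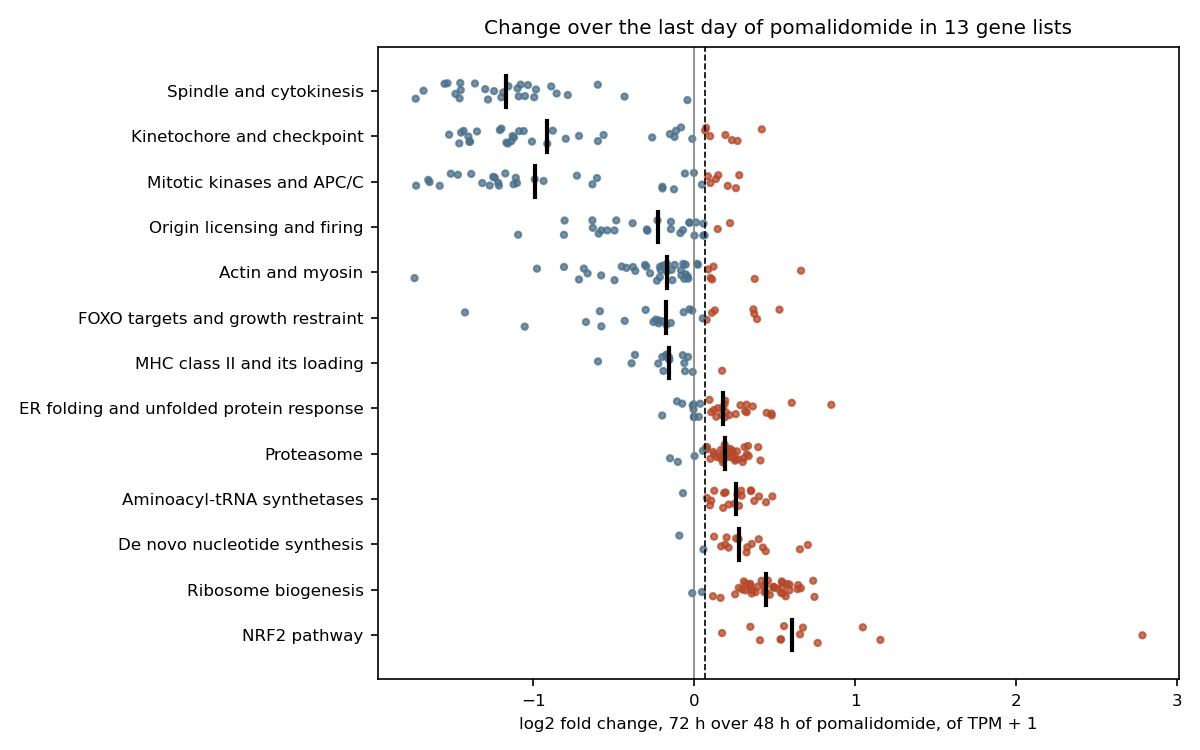
Log2 change of TPM + 1 over the last day, 72 h over 48 h of pomalidomide, for the members of 13 lists. Each point is a gene (red above and blue below the median of all tested genes, the dashed line at 0.06) and the black bar is the list median. Mitotic lists lie between -1.17 and -0.91 at their medians, and ribosome biogenesis at 0.44.

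Fuel and lipid genes fell in part. Lipid synthesis had 15 of 26 genes lower and 7 higher. The steepest falls included targets of SREBP, the sterol-regulated transcription factor. SCD, the desaturase that makes oleic acid, had 71.2, 68.02 and 70.9 TPM at 72 h, against 621, 606 and 634 TPM in untreated cells. INSIG1, the sterol-responsive anchor of SREBP, had 52.3, 52.6 and 53.3 TPM at 72 h, against 476, 469 and 469.8 TPM in untreated cells. The groups lay far apart for both, and both were higher than at 48 h, by 0.44 and 0.62 on the log2 scale. SREBF1, which encodes an SREBP, and FASN, fatty acid synthase, had log2 fold changes of -2.04 and -1.16. In the TCA cycle 15 of 25 genes fell, FH (fumarase) and MDH1 among them (-1.01 and -0.99), while IDH2, already the highest of the list, rose to 815 TPM at 72 h against 590.3 TPM in untreated cells. PC, pyruvate carboxylase, rose to 4.61 TPM at 72 h against 0.228 TPM in untreated cells. The large transporter of neutral amino acids SLC7A5 fell to 38.3 TPM at 72 h against 126 TPM in untreated cells, and SLC7A8, which carries similar substrates, had 37.99, 44.01 and 43.5 TPM at 72 h, against 0.56, 0.361 and 0.592 TPM in untreated cells, which placed it among the 25 largest rises.

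Genes of the secretory pathway of the plasma cell went the other way. Of 33 genes of folding in the endoplasmic reticulum and the unfolded protein response, 22 were higher and 7 lower than untreated (19 and 10 with median-of-ratios scaling). Against 48 h 21 were higher (16 with that scaling), beside 31.6% of all genes. For 14 of the 33 the 72 h libraries were above all of the other 18, against a background of 12.3%. HSPA5 (BiP), the main chaperone of the compartment, had 1376, 1339 and 1422 TPM at 72 h, against 750.1, 739 and 734 TPM in untreated cells, a log2 fold change of 0.89 ± 0.03 (SE), limma adjusted p = 6.17e-16. HERPUD1, which serves degradation of misfolded proteins, had 633, 657 and 660.2 TPM at 72 h, against 239.8, 244 and 239 TPM in untreated cells. DNAJB9, a BiP cofactor, had 385, 349 and 378 TPM at 72 h, against 116, 109 and 113 TPM in untreated cells. In these 3 genes every 72 h library was above every other library of the series. ERN1 (IRE1), the sensor that splices XBP1, rose to 158 TPM at 72 h against 81.95 TPM in untreated cells, and MZB1, a chaperone of antibody assembly, rose to 1977 TPM at 72 h against 1133 TPM in untreated cells. ERO1A, the oxidase that drives disulfide formation, SEL1L, an adaptor of degradation, and HSP90B1, the endoplasmic HSP90, fell, with log2 fold changes of -1.03, -0.88 and -0.31. The immunoglobulin joining chain JCHAIN fell to 3769.7 TPM at 72 h against 5731 TPM in untreated cells. IGLL5, whose gene lies in the lambda light chain locus so that light chain reads may be counted there, fell to 24507 TPM at 72 h against 38099 TPM in untreated cells. Of the translocon and coat genes 26 of 43 were higher and 6 lower, a split that median-of-ratios scaling turned to 15 and 16. COPA of the COPI coat had a log2 fold change of 0.84, and 0.68 with that scaling.

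The endoplasmic reticulum stress element (ERSE), read by XBP1 and ATF6, is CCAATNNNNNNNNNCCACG. It stands in 7 of 30 promoters of the list (23.3%), against 0.15% of tested genes and 0.0806% of all promoters, and is shown in capitals in HSPA5 and CRELD2, a folding factor that rose by 1.17. The second is on the reverse strand (GRCh38.p14, 90 bases before the RefSeq start, 5′ to 3′).
HSPA5 (chr9:125241344-125241433, minus strand): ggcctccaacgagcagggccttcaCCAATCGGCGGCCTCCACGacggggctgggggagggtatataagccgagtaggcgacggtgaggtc
CRELD2 (chr22:49918544-49918633, plus strand): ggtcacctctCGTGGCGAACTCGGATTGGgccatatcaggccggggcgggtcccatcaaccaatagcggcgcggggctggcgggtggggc
Of the 7 genes with the element, 5 rose, HSP90B1 fell and XBP1 did not pass.

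Genes for surface and secreted proteins were among the largest rises. MME (CD10), a membrane peptidase of early B cells (chr3:155024124-155183729 on the plus strand, hg38), had 378, 359 and 369.6 TPM at 72 h, against 5.68, 5.59 and 4.76 TPM in untreated cells. Its log2 fold change, 5.87 ± 0.08 (SE), limma adjusted p = 2.71e-22, was the largest among called genes without overlap and with at least 5 TPM in the higher group, and the level at 48 h was 375 TPM. ITGB7, the beta 7 integrin and a MAF target (chr12:53191318-53207307 on the minus strand, hg38), gained the most TPM of any called gene, with 20212, 21774 and 19678 TPM at 72 h, against 8778, 8566 and 8872 TPM in untreated cells. CX3CR1, the fractalkine receptor, had 227, 212 and 210.4 TPM at 72 h, against 12.1, 11.4 and 13.2 TPM in untreated cells. All of these were without overlap between the groups, as were MMP9, a gelatinase (39.9, 43.5 and 33.3 TPM at 72 h, against 0, 0 and 0.414 TPM in untreated cells), and LAMB3, a laminin chain (79.9, 81.8 and 70.2 TPM at 72 h, against 2.02, 0.461 and 0.551 TPM in untreated cells). SERPINH1, a collagen chaperone, rose to 26.9 TPM at 72 h against 0.632 TPM in untreated cells, ITGB5, the beta 5 integrin, to 534 TPM at 72 h against 108 TPM in untreated cells and GAS6, the ligand of the TAM receptors, to 1526 TPM at 72 h against 404 TPM in untreated cells. HSD11B1, the enzyme that regenerates cortisol from cortisone, had 60.5, 55.5 and 48.9 TPM at 72 h, against 0.202, 0.409 and 0.213 TPM in untreated cells.

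**Figure D5:**
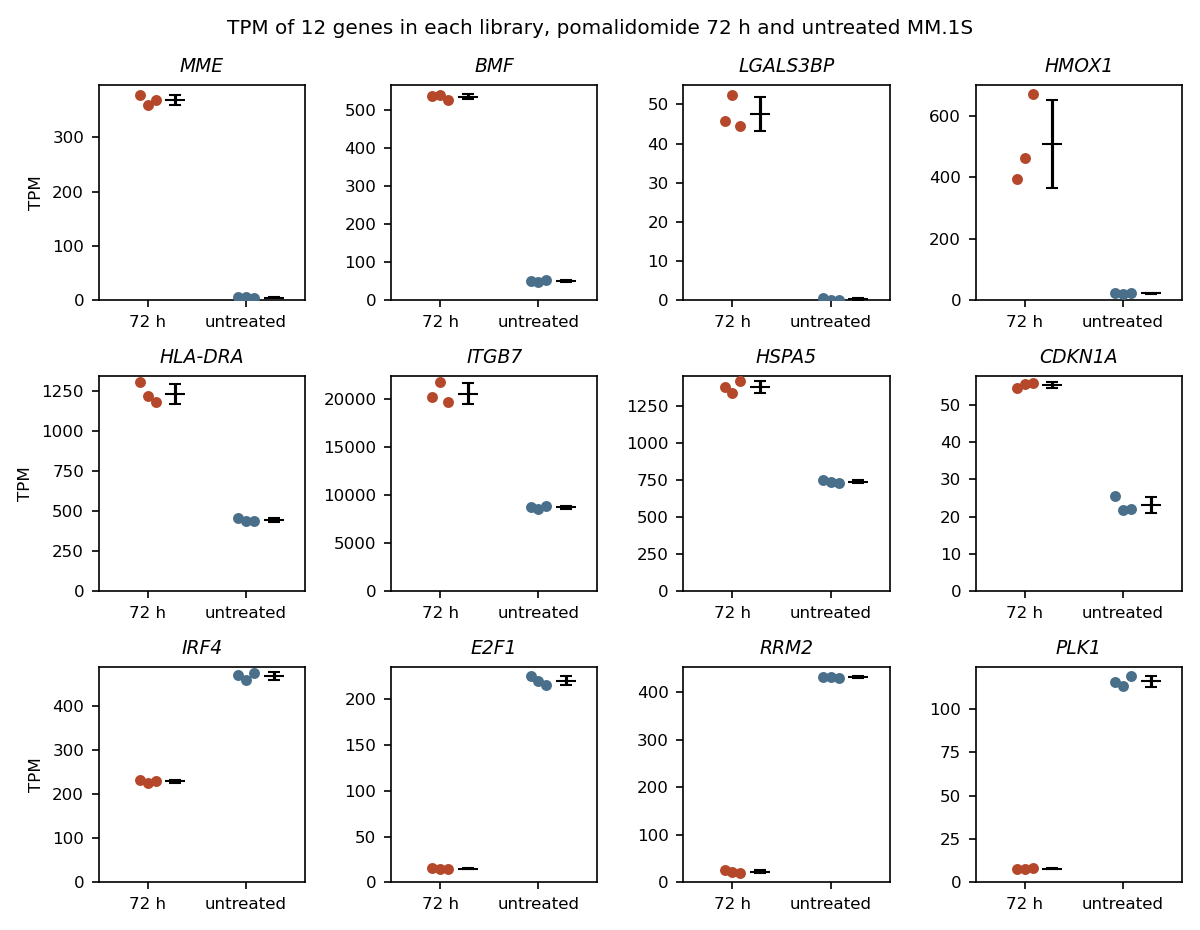
TPM of 12 genes in each library, 72 h of pomalidomide on the left and untreated on the right in each panel, with bars at the mean and error bars of 1 SD (n = 3 each). MME, BMF, LGALS3BP, HMOX1, HLA-DRA, ITGB7, HSPA5 and CDKN1A are higher at 72 h, and IRF4, E2F1, RRM2 and PLK1 are lower, with no overlap in any panel. For MME, LGALS3BP, HMOX1, E2F1, RRM2 and PLK1 the lack of overlap was a condition of the choice.

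Messages of proteins that antibodies and cell therapies for myeloma address moved in both directions. SLAMF7, the target of elotuzumab, had 396, 379 and 360.1 TPM at 72 h, against 726, 707 and 709 TPM in untreated cells. TNFRSF17 (BCMA) had 538, 534 and 520.3 TPM at 72 h, against 959.6, 982 and 924 TPM in untreated cells. Every 72 h library was below every untreated one for both, with log2 fold changes of -0.92 and -0.85. CD38, the target of daratumumab, was low in both groups and rose to 11.6 TPM at 72 h against 6.92 TPM in untreated cells, though it stood at 21.6 TPM at 48 h. SDC1 (CD138) rose to 926 TPM at 72 h against 686 TPM in untreated cells and GPRC5D to 165 TPM at 72 h against 124 TPM in untreated cells. LY9, a relative of SLAMF7, and NCAM1 (CD56) rose by 1.56 and 1.83 on the log2 scale, and CD48 and CD70, ligands of NK and T cell receptors, fell (-0.65 and -1.58). In the list 21 of 33 rose and 9 fell (17 and 10 with median-of-ratios scaling), beside 48.1% and 31.6% of all genes. CXCR4, the receptor that holds plasma cells in the marrow, fell to 51.2 TPM at 72 h against 87.2 TPM in untreated cells, after 116 TPM at 48 h. BLNK, the linker of the B cell receptor, rose to 124 TPM at 72 h against 20.3 TPM in untreated cells, and TNFRSF13B (TACI) to 288 TPM at 72 h against 154 TPM in untreated cells, whereas the kinase SYK and the adaptor PIK3AP1 fell (-0.73 and -2.05).

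Genes of antigen presentation through MHC class II rose as a group. Of 17 genes 13 rose and 3 fell (relative median 1.01). HLA-DRA, the invariant alpha chain of HLA-DR, had 1306, 1219.9 and 1182 TPM at 72 h, against 460.5, 439 and 443 TPM in untreated cells, a log2 fold change of 1.46 ± 0.04 (SE), limma adjusted p = 3.33e-18. CD74, the invariant chain that guards the groove, had 2440.4, 2560.1 and 2290.5 TPM at 72 h, against 1078, 1076 and 1105 TPM in untreated cells. LGMN, a protease that processes CD74 and antigens, had 739, 760.5 and 718 TPM at 72 h, against 116, 107 and 114 TPM in untreated cells. No library overlapped in these 3. CIITA, the coactivator of class II genes, rose to 30.6 TPM at 72 h against 18.3 TPM in untreated cells. HLA-DMA and HLA-DMB, which load peptides, rose by 1.95 and 2.12. HLA-DOB, which opposes them, fell by 1.14, and so did RFX5 and RFXAP of the promoter complex (-0.86 and -0.37), the call of RFXAP being lost without library 2 or 3 of 72 h or library 3 of untreated cells. Of 19 class I genes 13 rose and 2 fell (11 and 4 with median-of-ratios scaling), beside 48.1% and 31.6% of all genes. All 7 class I molecules, beta 2 microglobulin counted, were among the 13 rises, HLA-B to 1327 TPM at 72 h against 703 TPM in untreated cells. MICB, a ligand of the NK receptor NKG2D, fell to 29.9 TPM at 72 h against 68.04 TPM in untreated cells. HLA genes are close copies, so the division of reads among them is uncertain. Against 48 h, 7 of the 17 class II genes were lower (10 with median-of-ratios scaling), beside 16.5% of all genes, and CTSS alone was higher (0.17).

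Interferon response genes were mostly higher. The list had 34 of 51 genes higher and 11 lower than untreated (relative median 0.44). GBP6 is counted among the rises, though it was listed at 0 in untreated cells and could only be higher. LGALS3BP, a secreted glycoprotein (chr17:78971238-78980109 on the minus strand, hg38), had 45.8, 52.4 and 44.3 TPM at 72 h, against 0.596, 0.172 and 0.18 TPM in untreated cells. STAT2, which with IRF9 carries the type I interferon signal, had 275, 271 and 269 TPM at 72 h, against 95.4, 92.1 and 93.3 TPM in untreated cells. IRF7, the amplifier of interferon genes, had 44.2, 45.8 and 44.6 TPM at 72 h, against 12.9, 12.3 and 10.6 TPM in untreated cells. The groups did not overlap in any of the 3, which for LGALS3BP was a condition of the choice. IRF9 rose to 25.9 TPM at 72 h against 8.51 TPM in untreated cells and IRF1 to 101 TPM at 72 h against 43.7 TPM in untreated cells. TMEM173 (STING), the receptor of cyclic dinucleotides, rose to 11.6 TPM at 72 h against 0.351 TPM in untreated cells. Among the falls were GBP1, a guanylate-binding protein (-1.22), the RNA sensor IFIH1 (-0.64), the DNA sensor AIM2 (-0.70), SAMD9L (-0.59) and HERC5, the ligase of ISG15 (-0.46). ISG15 itself fell to 15.8 TPM at 72 h against 20.1 TPM in untreated cells, a call lost without library 1 or 3 of either group. Against 48 h, 21 of the list were lower and 11 higher (24 and 6 with median-of-ratios scaling), beside 16.5% and 31.6% of all genes. GBP1 averaged 16.8 TPM in untreated cells, 48.03 at 24 h, 27.01 at 48 h and 6.64 at 72 h, and was thus above untreated early and below it at the end.

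The interferon-stimulated response element (ISRE, GAAANNGAAA) is shown for 2 genes that rose and for GBP1, which fell, so that the same letters can be seen beside opposite outcomes (GRCh38.p14, 5′ to 3′ on the gene's strand, windows of 90 bases upstream of the RefSeq start). Capitals mark the element or its reverse complement.
LGALS3BP (chr17:78979924-78980013, minus strand): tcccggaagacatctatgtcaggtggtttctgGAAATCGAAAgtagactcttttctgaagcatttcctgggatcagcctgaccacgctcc
IFI6 (chr1:27672263-27672352, minus strand): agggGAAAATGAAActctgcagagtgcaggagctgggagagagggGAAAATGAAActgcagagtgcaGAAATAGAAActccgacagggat
GBP1 (chr1:89065269-89065358, minus strand): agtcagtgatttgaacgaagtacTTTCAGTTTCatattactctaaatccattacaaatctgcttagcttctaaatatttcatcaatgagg
The element stood in 23 of 38 promoters of the list (60.5%), against 3.06% of tested genes and 3.65% of all promoters. Of the 23 genes 14 rose and 7 fell, with a median log2 fold change of 0.41, and of the 15 without it 13 rose and 2 fell, with a median of 0.85. The 15 include GBP6, which could only be higher. IFI6, a mitochondrial survival protein with the letters in 3 places here, rose to 81.5 TPM at 72 h against 23.6 TPM in untreated cells.

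Chemokines and their receptors had 10 of 18 genes higher and 5 lower (9 and 5 with median-of-ratios scaling), near the 48.1% and 31.6% of all genes. CCL3, the macrophage inflammatory protein that drives bone resorption in myeloma, had 214, 213 and 224 TPM at 72 h, against 916, 934 and 880.4 TPM in untreated cells. CXCL10, an attractant of T cells, had 103, 97.2 and 99.9 TPM at 72 h, against 25.95, 32.8 and 35.7 TPM in untreated cells. All CCL3 libraries of 72 h were below, and all CXCL10 libraries above, every untreated one. CXCL13 rose to 10.9 TPM at 72 h against 0.286 TPM in untreated cells and CXCL9 to 4.46 TPM at 72 h against 0.0392 TPM in untreated cells, both low. Such untreated levels left little room for a fall. CCR1, a receptor of CCL3, rose by 0.57, and the receptor CCR2 fell (-0.63). CCL3 has near-identical copies, and reads could be divided among them.

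Messages of lysosomal and autophagy genes were raised broadly. Of 53 lysosomal hydrolases and membrane proteins 39 rose and 13 fell (relative median 0.38), and all 10 membrane proteins were among the rises. CTSB, cathepsin B, had 308, 324 and 308 TPM at 72 h, against 90.9, 87.96 and 92.9 TPM in untreated cells. CTSO, cathepsin O, had 296, 273 and 274 TPM at 72 h, against 61.996, 57.02 and 58.2 TPM in untreated cells. PSAP, the precursor of the saposins, rose to 2067 TPM at 72 h against 1095 TPM in untreated cells, SGSH, heparan sulfatase, to 77.8 TPM at 72 h against 26.2 TPM in untreated cells and CD63 to 274 TPM at 72 h against 135 TPM in untreated cells. GLA, the alpha-galactosidase of Fabry disease, fell to 31.7 TPM at 72 h against 83.2 TPM in untreated cells and GUSB, beta-glucuronidase, to 134 TPM at 72 h against 213 TPM in untreated cells. The V-ATPase, which acidifies the lysosome, had 14 of 16 subunits higher and 1, ATP6V0B, lower (-0.36), a count that became 11 and 2 with median-of-ratios scaling. TFE3, a regulator of lysosomal genes, rose to 93.1 TPM at 72 h against 47.2 TPM in untreated cells, while its relative TFEB fell by 0.33 on the log2 scale and MITF had 3.84 TPM at 72 h against 4.79 TPM in untreated cells and did not pass. MITF was called lower with median-of-ratios scaling (-0.39), with quantile normalization (-0.45), without mitochondrial mRNAs and IGLL5 (-0.32), without library 2 of 72 h (-0.37) and without untreated library 3 (-0.34).

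Autophagy genes had 30 of 38 higher and 4 lower (relative median 0.42). ULK1, the starting kinase, had 29.5, 34.4 and 29.3 TPM at 72 h, against 11.03, 10.9 and 9.75 TPM in untreated cells. ATG16L2, a relative of the conjugation factor ATG16L1, had 74.8, 75.3 and 75.1 TPM at 72 h, against 20.2, 20.05 and 18.5 TPM in untreated cells. The receptors NBR1 and SQSTM1 (p62) rose to 104 and 316 TPM at 72 h, against 46.9 and 188 TPM in untreated cells. BECN1, a part of the lipid kinase complex, rose by 1.01 and OPTN, a receptor of mitophagy, by 0.97. The 4 falls were ATG3 (-0.58), ULK2 (-0.48), ATG10 (-0.37, a call lost when the 6 libraries were fitted alone) and ATG4D (-0.19).

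The motif of lysosomal genes, CLEAR (TCACGTGA, its own reverse complement), was found in 6 of 34 lysosomal promoters (17.6%), against 2.02% of tested genes and 1.04% of all promoters. GAA, the acid alpha-glucosidase of Pompe disease, has it in 2 places within 90 bases of its start (GRCh38.p14, 5′ to 3′), and its message rose to 9.53 TPM at 72 h against 2.43 TPM in untreated cells.
GAA (chr17:80101491-80101580, plus strand): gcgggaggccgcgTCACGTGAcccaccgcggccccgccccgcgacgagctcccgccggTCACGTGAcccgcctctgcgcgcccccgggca
All 6 genes with the letters rose, among them CTSA, LAMP1 and MCOLN1, and of the 28 without them 16 rose and 11 fell.

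Cell death genes changed on both sides of the balance. BMF, a BH3-only protein that opposes BCL2 (chr15:40087890-40108892 on the minus strand, hg38), had 537, 539.6 and 526 TPM at 72 h, against 49.8, 47.8 and 52.8 TPM in untreated cells. Its log2 fold change was 3.39 ± 0.03 (SE), limma adjusted p = 8.84e-25, and its level at 48 h was 597 TPM. BCL2L11 (BIM) had 178, 190.1 and 192 TPM at 72 h, against 99.2, 91.9 and 96.9 TPM in untreated cells. BBC3 (PUMA) rose to 34.9 TPM at 72 h against 10.5 TPM in untreated cells. All 72 h libraries of these 3 promoters of cell death lay above the untreated range. MCL1, the survival protein on which myeloma cells lean, rose too, to 594 TPM at 72 h against 353 TPM in untreated cells, and BCL2 rose to 48.8 TPM at 72 h against 25.7 TPM in untreated cells, while BCL2L1 (BCL-XL) had 354 TPM at 72 h against 369.6 TPM in untreated cells and did not pass. BCL2L1 was called lower with median-of-ratios scaling (-0.23), without mitochondrial mRNAs and IGLL5 (-0.12) and without library 2 of 72 h (-0.08). PMAIP1 (NOXA), HRK and BID, also promoters of cell death, fell, with log2 fold changes of -1.04, -1.21 and -0.27. In the family 9 of 15 rose and 3 fell (7 and 4 with median-of-ratios scaling), beside 48.1% and 31.6% of all genes.

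Targets of FOXO factors and genes that restrain growth rose in 22 of 25 cases (relative median 0.77). TXNIP, which limits glucose uptake, had 704, 699 and 709 TPM at 72 h, against 209, 206 and 223 TPM in untreated cells. BTG1, an antiproliferative adaptor, had 389, 369 and 359 TPM at 72 h, against 122, 122 and 116 TPM in untreated cells. CITED2 rose to 205 TPM at 72 h against 51.6 TPM in untreated cells and TSC22D3 (GILZ) to 45.8 TPM at 72 h against 10.5 TPM in untreated cells. FOXO3 and FOXO4 rose by 0.84 and 1.33. SESN3 alone fell (-1.38). Against 48 h, 12 of the list, TXNIP among them (-0.58), were lower (15 with median-of-ratios scaling), beside 16.5% of all genes.

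Several rises came late. HMOX1, heme oxygenase 1, which breaks heme down to iron, biliverdin and carbon monoxide (chr22:35380361-35394214 on the plus strand, hg38), had 394, 461 and 669 TPM at 72 h, against 23.7, 21.97 and 24.1 TPM in untreated cells. The 72 h libraries were spread, with the third the highest, and the lowest was still far above untreated. Its log2 fold change was 4.35 ± 0.12 (SE), limma adjusted p = 7.90e-18, and the mean had been 45.1 TPM at 24 h and 71.1 TPM at 48 h. Of the 12 genes of the NRF2 pathway, which answers oxidative and electrophilic stress, 9 were higher and 1 lower than untreated. Against 48 h 11 were higher, beside 31.6% of all genes, and 8 had 72 h libraries above all of the other 18, beside 12.3% of all genes. NQO1, a quinone reductase, had 73.6, 80.3 and 108 TPM at 72 h, against 22.5, 21.2 and 21.4 TPM in untreated cells. GCLM, the regulatory subunit of glutathione synthesis, averaged 10.9 TPM in untreated cells, 9.68 at 24 h, 7.47 at 48 h and 17.9 at 72 h, and so turned upward only on the last day. FTL, the ferritin light chain, had 5784, 6714 and 7016 TPM at 72 h, against 2244, 2273 and 2190.4 TPM in untreated cells, without overlap. TFRC, the transferrin receptor, fell to 104 TPM at 72 h against 159.8 TPM in untreated cells, after 46.1 TPM at 48 h. Of the 10 other redox enzymes 7 fell, thioredoxin (TXN, -0.51) and peroxiredoxin 2 (PRDX2, -0.62) among them, and glutathione peroxidase 1 (GPX1) rose by 0.81.

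ACTG1 and ACTB rose at 24 h, to means of 2909 and 3549 TPM. Both were below untreated cells at 48 h and lower again at 72 h. ACTG1, gamma actin, had 1426, 1405 and 1449 TPM in untreated cells, 1241, 1188 and 1165 TPM at 48 h and 361, 369 and 345 TPM at 72 h. ACTB, beta actin, had 2377, 2356 and 2379 TPM in untreated cells, 1715, 1646 and 1646 TPM at 48 h and 839.7, 875 and 827 TPM at 72 h. Every 72 h library was thus below every 48 h and every untreated library for both, with log2 fold changes of -1.99 and -1.48 against untreated. Of the 41 actin, myosin and regulator genes 16 were higher and 17 lower than untreated. Against 48 h 24 of the 41 were lower (30 with median-of-ratios scaling), beside 16.5% of all genes. CORO1A and TAGLN2, which bind actin filaments, and the bundling protein LCP1 fell (-1.28, -1.28 and -0.70). CORO1B, a relative of CORO1A, rose by 3.92 on the log2 scale and MYH7B, a myosin heavy chain, rose to 31.7 TPM at 72 h against 0.199 TPM in untreated cells. Tubulin TUBA1B, a further part of the cytoskeleton, fell to 225 TPM at 72 h against 1927 TPM in untreated cells. Actin and tubulin genes have close copies and pseudogenes that could share reads.

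IGFBP3, which binds insulin-like growth factors (chr7:45912245-45921874 on the minus strand, hg38), was among the late rises as well, with 89.01, 91.8 and 90.4 TPM in untreated cells, 246, 236 and 267 TPM at 48 h and 538, 596 and 594 TPM at 72 h. HSPA6, a heat shock protein induced by strong stress, had 1.29, 1.30 and 2.18 TPM in untreated cells, 2.21, 1.05 and 1.91 TPM at 48 h and 9.43, 10.7 and 10.8 TPM at 72 h. In both, each 72 h library was above each untreated and each 48 h library. RGS1, a brake on chemokine receptors, had 45.8, 48.6 and 44.7 TPM in untreated cells, 119, 97.7 and 122 TPM at 48 h and 35.2, 32.5 and 30.05 TPM at 72 h, so that it was above untreated at 48 h and below it at 72 h.

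For 69 tested genes each untreated library was listed at 0. They passed the filter through other groups and could only be higher, so no count of calls is given for them as a set. Those that belong to a gene list are still counted in that list, as GBP6 is among the interferon response genes. GBP6, a guanylate-binding protein, stood at 9.25, 7.93 and 7.20 TPM at 72 h and at 0 in each untreated library. CXCL11, an interferon-induced chemokine, stood at 5.86, 3.14 and 4.23 TPM at 72 h, and C5AR1, the receptor of complement C5a, at 5.05, 4.82 and 5.65 TPM, again with 0 in each untreated library. CEMP1 stood at 11.2, 0 and 17.7 TPM at 72 h, with its second library at 0 like the untreated ones. No fold change is given here for these genes, since 0 in a table without counts sets no lower limit.

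Markers of cell types that the culture should not hold were examined beside these results. Of the 11 myeloid markers 10 were listed, 5 passed the filter and 4 were higher at 72 h, with a summed level of 57.0 to 61.0 TPM at 72 h and 4.82 to 8.76 TPM in untreated cells. Nearly all of it was CD68, a lysosomal membrane protein, at 49.8 TPM at 72 h against 4.74 TPM in untreated cells, followed by CD14 at 3.67 TPM at 72 h against 0.603 TPM in untreated cells. MPO was at 0 in all 6 libraries, and LYZ, CSF1R, S100A8 and FCGR3A stayed at or under 0.888 TPM. T and NK cell markers summed to 14.3 to 16.7 TPM at 72 h and 3.28 to 3.97 TPM in untreated cells, most of it CD7 (12.1 TPM at 72 h against 1.52 TPM in untreated cells), with CD3D at 0 in all 6. Mature B cell markers summed to 27.8 to 28.7 TPM at 72 h and 41.4 to 42.5 TPM in untreated cells, nearly all of it CR2, which fell by 0.63 on the log2 scale. Epithelial and stromal markers summed to 1.48 to 1.74 TPM at 72 h and 7.40 to 7.56 TPM in untreated cells, and erythroid ones to 11.0 to 14.5 TPM at 72 h and 12.2 to 18.3 TPM in untreated cells, with HBB the main one. The part of other cells in the results was not tested.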

How the data were processed

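Polyadenylated RNA libraries (TruSeq RNA v2 kit, per the labels' protocols) of 21 samples were given as 1 table of TPM values deposited by the authors, with 1 row for each of 17691 gene symbols and reads placed on hg38, per the submitters' processing notes. Quantifier, annotation and strand setting: not given in the sources used here. Antisense and overlapping genes may therefore share reads. TPM are relative to all transcripts of a library, so a fall in abundant messages raises all others, and no depth or counting interval can be derived from them.

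From these, 12559 genes (3 or more libraries at 1 TPM or above) were put on the log2(TPM + 1) scale and fitted with limma 3.58.1 (R 4.3.3), with 7 group means over all 21 libraries, a mean-variance trend and Benjamini-Hochberg adjustment over all genes. The log2 fold changes understate the change of low genes. A gene was called at an adjusted p under 0.05. The 72 h against 48 h contrast came from the same fit. The procedure was also run on simulated data in which few genes changed, unlike here, so that run cannot vouch for the calls reported. Gene coordinates are GENCODE 29 (GRCh38), and promoters are RefSeq (GRCh38.p14). Same-numbered libraries were not treated as pairs.

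The genes of each list and the comparison itself were chosen with earlier results of these data known. Named were IKZF1, IKZF3, CRBN, ARID2, IRF4 and MYC, and the 25 largest rises and falls among called genes with no overlap and a mean of at least 5 TPM in the higher group. To these were added the 12 largest changes in TPM each way and the 12 highest genes listed at 0 in untreated cells. The 10 largest changes of the last day each way were taken from genes also called in the same direction against untreated cells. Further ones were up to 5 called members per direction of each list by smallest p, with every member of lists of up to 12. Members that did not pass, and some others with a known role, were picked after their values were seen. For the 25 largest rises and the 25 largest falls a lack of overlap was a condition of the choice and is not a result. Results on some genes are not reported here. Alternatives were another pseudocount, other filters, median-of-ratios and quantile scaling, TPM without mitochondrial mRNAs and IGLL5, a replicate block, a fit of the 2 groups alone and each library left out.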

Additional observations from a re-analysis of the deposited data

Results flagged for a closer look

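The 20 genes are the 10 largest rises and 10 largest falls from 48 to 72 h among genes past the threshold there in the same fit. Each had a mean of at least 5 TPM in the higher group and was called in the same direction against untreated cells. Genes that moved back toward their untreated level without passing it were therefore left out. The 20 genes were chosen by these differences, which are given as a description.

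Among the rises, the NRF2 targets HMOX1, GCLM and NQO1 had log2 changes over 48 h of 2.79, 1.16 and 1.05. GCLM and BHLHA15, a transcription factor of secretory cells (1.37), had been below their untreated level at 48 h, BHLHA15 with means of 64.2 TPM in untreated cells, 37.8 at 48 h and 97.95 at 72 h. The heat shock gene HSPA6 rose by 2.08, IGFBP3 by 1.20 and CRABP2, which carries retinoic acid, by 1.16. The histone gene listed as H2BFS_1 rose by 1.35, with close copies that could share its reads. For CEMP1 and TMEM265 the fitted values were 2.61 and 2.61, but CEMP1 was listed at 0 in all 3 libraries of 48 h and in 1 of 72 h, and TMEM265 at 0 in 2 of the 3 libraries of 48 h, so that these values depend on the added 1 TPM.

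Among the falls, 7 were genes of mitosis: KIF20A (-1.73), UBE2C (-1.73), DLGAP5 (-1.68), PLK1 (-1.65), CDC25C (-1.65), PIMREG (-1.60) and TOP2A (-1.59). ACTG1 fell by 1.74 on the log2 scale. GBP1 (-1.87) and RGS1 (-1.76) were above their untreated level at 48 h and below it at 72 h, the latter being a condition of the choice.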

How the results depend on the processing

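The counts of genes called against untreated cells kept within 1.5 times under all alternatives, from 8708 with a filter of at least 5 TPM to 10686 with no filter, and were 9661 to 9761 with a library left out. Scaling moved the balance: 60.4% of calls were higher as deposited, 50% with median-of-ratios scaling, 53.7% with quantile normalization and 56.9% without mitochondrial mRNAs and IGLL5. Of the genes higher at 72 h than at 48 h, 3967 became 2524 with median-of-ratios scaling. With a pseudocount of 5 TPM the genes called at 2-fold or more fell to 1281, with 668 higher and 613 lower, since low genes lose fold by construction. The median log2 fold change of actin and myosin genes was -0.032, and -0.16 with median-of-ratios scaling, -0.11 with the filter of 5 TPM and -0.087 without mitochondrial mRNAs and IGLL5. With a library left out it lay between -0.0364 (without library 1 of 72 h) and 0.029 (without untreated library 1). Single genes that changed sign with median-of-ratios scaling were DNAJA1 (-0.034), DNAJB1 (-0.014), PES1 (-0.014) and FANCF (-0.13), and XBP1 did so with quantile normalization (0.16). The cause was not tested. Of the 311 genes named in the text that were followed through the alternatives, 291 kept their direction and their side of the threshold in all of them.

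Same-numbered libraries did not deviate together: the correlations of their deviations from the group means, across genes, were -0.05, -0.08 and -0.03 for 72 h with untreated cells. With the replicate number as a block, a replicate block that the labels do not ask for, 6040 genes were higher and 3965 lower. No call on a gene named here changed with the block. Depth is unknown, so that low genes carry an error that could not be set, and 3 libraries of 1 line limit every statement to that line.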

Other observations

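Values of further gene lists at 72 h are given here beside 48.1% of all genes higher and 31.6% lower. In the extrinsic death pathway 14 of 24 genes were higher and 8 lower (9 and 8 with median-of-ratios scaling), which is near those shares. The decoy receptor TNFRSF10D, which binds TRAIL without a death signal, rose to 29.96 TPM at 72 h against 6.03 TPM in untreated cells, and CFLAR, the inhibitor of caspase 8, to 43.04 TPM at 72 h against 19.05 TPM in untreated cells. The TRAIL receptor TNFRSF10B fell to 19.7 TPM at 72 h against 30.5 TPM in untreated cells, and the executioner caspase CASP6 fell (-0.51 on the log2 scale). Of the NF-kB list 14 of 25 genes were higher and 7 lower. Among its inhibitors and feedback proteins 8 of 9 rose and none fell, NFKBIZ to 25.2 TPM at 72 h against 4.34 TPM in untreated cells and BCL3 to 42.8 TPM at 72 h against 15.1 TPM in untreated cells. Of the immediate early and MAPK feedback genes 11 of 21 were higher and 6 lower. Among these, the feedback phosphatases and Sprouty proteins had 7 of 9 higher, DUSP4 at 336 TPM at 72 h against 153 TPM in untreated cells and DUSP5 at 764 TPM at 72 h against 402 TPM in untreated cells, and DUSP2 and DUSP6 were lower (-1.23 and -0.63).

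Serine synthesis and one-carbon enzymes, which feed nucleotide synthesis, had 9 of 16 lower and 4 higher. PHGDH, the first enzyme of serine synthesis, stood at 3.42 TPM at 72 h against 19.6 TPM in untreated cells, and MTHFD1L and SHMT2 of the mitochondrial folate route had log2 fold changes of -1.64 and -1.36. In the SWI/SNF chromatin remodellers 9 of 26 subunits were higher and 12 lower, and 8 and 16 with median-of-ratios scaling. DPF3, an accessory subunit, fell to 5.68 TPM at 72 h against 24.5 TPM in untreated cells, while SMARCD1 rose to 196 TPM at 72 h against 131 TPM in untreated cells. Integrin and matrix genes outside those named in the report also moved both ways: ITGA6 fell to 3.71 TPM at 72 h against 21.4 TPM in untreated cells and vimentin (VIM) to 10.5 TPM at 72 h against 39.9 TPM in untreated cells, and ITGB1 rose to 188 TPM at 72 h against 101 TPM in untreated cells.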
